A study of Homo sapiens with 7 samples.

Results

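Transcriptional targets of WNT signalling, 10 genes in all, were followed through RNA-seq counts of HCT116 colon carcinoma cells: AXIN2, LGR5, ASCL2, NKD1, RNF43, ZNRF3, TCF7, LEF1, SP5 and MYC. They were taken by gene symbol from the deposited table of 19699 genes. The rule names the genes and sets no threshold on their values, but the set was drawn up with earlier results of these data known. All 10 symbols were in the table, and 7 of them reached 1 CPM, a count scaled to a common library size, in at least 1 library. The other 3 members, LGR5, ASCL2 and LEF1, stayed at or near 0 counts throughout.

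The libraries came from HCT116 p53-/- cells, an established line without functional p53, into which a p53 form or a control was brought by infection. Every group shares the p53-/- background and the mutant beta-catenin of HCT116. The 7 groups were cells with wild-type p53, p53-M133T cells with and without arsenic trioxide (ATO), p53-R273H cells with and without ATO, and control cells with and without ATO. The control is called vector in the series design and a vehicle in the treatment protocol, and is called vector here. M133T and R273H each change an amino acid of the DNA-binding domain, and ATO is an arsenic compound used against acute promyelocytic leukaemia. ATO was given at 1 µg/ml for 24 h, and no library of wild-type p53 cells with ATO was analysed here. Each group held 1 library, so no group has a replicate, and nothing in the labels says how many clones or cultures a line stands for.

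In canonical WNT signalling, beta-catenin is marked for destruction by a complex built on the scaffold proteins APC and AXIN, and WNT ligands bound to Frizzled and LRP receptors halt that destruction. Stabilised beta-catenin enters the nucleus and activates genes together with TCF and LEF proteins, which bind DNA. In the colon this programme maintains the stem cells at the base of the crypt, and several of its targets, such as AXIN2, NKD1, RNF43 and ZNRF3, feed back to dampen the signal. MYC, a transcription factor that drives ribosome production and growth, is among its best known targets in intestinal cells.

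Total counts were between 25062996 in the wild-type p53 library and 39297534 in the p53-M133T library. Values are CPM scaled by the trimmed mean of M-values (TMM), with factors between 0.967 and 1.03. A count of 0 allows up to 3 counts, which is 0.0761 to 0.116 CPM by library. All 6 epithelial markers (EPCAM, KRT8, KRT18, KRT19, CDH1 and CDX2) were above 1 CPM in every library. The wild-type p53 library stood apart. In the labels its number differs from the one the other libraries share. What that number stands for is not settled here. Anything it marks, such as a batch, cannot be told apart from genotype wherever this library is compared. Its 10 leukocyte markers summed to 35.6 CPM, against 5.07 to 9.27 CPM in the other 6 libraries. At 1 CPM or above were CD68 (27.7 CPM), LYZ (5.77 CPM) and CSF1R (1.05 CPM), against CD68 alone in each other library, where LYZ was at 0.255 CPM or less and CSF1R at 0.455 CPM or less. Its defining T-cell marker CD3E was at 0 counts and PTPRC, the pan-leukocyte antigen CD45, was at 4 counts. Its 6 erythroid and endothelial markers summed to 19.9 CPM, beside 14.6 CPM in vector cells and 1.85 to 3.1 CPM in the other 5 libraries. The part of these differences in the results below was not tested.

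CDKN1A, which encodes the cell cycle inhibitor p21 and is a direct target of p53, was read in the same libraries. It stood at 196 CPM in wild-type p53 cells. It was at 357 CPM in p53-M133T cells with ATO and at 85 CPM in those without. In p53-R273H cells it was at 74.6 CPM with ATO and at 61.5 CPM without, and in vector cells at 83.9 CPM with ATO and at 60.9 CPM without. CDKN1A was thus higher with ATO also in vector cells, which lack functional p53. How much of its level reflects p53 was not tested. The ATO effect on CDKN1A was larger in p53-M133T cells than in the other 2 lines (3.25-fold, adjusted p = 5.35e-37, edgeR quasi-likelihood interaction test). The p53-M133T arm is 1 pair of single libraries, and the spread comes from the difference between the other 2 lines and from all genes (1 residual and 158 prior degrees of freedom), so the p-value does not measure how p53-M133T cultures vary.

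The sequence before the transcription start was looked up for all 10 members in a RefSeq promoter table (GRCh38.p14), which held 4 of them, RNF43, TCF7, LEF1 and SP5. The 250 bases before each start were searched on both strands for the TCF/LEF core letters CTTTGAT and CTTTGTT, which do not overlap each other. SP5, a zinc-finger repressor, held CTTTGAT on the forward strand from 109 bases before its start. TCF7 held CTTTGTT on the reverse strand, so that it reads AACAAAG, from 50 bases before the downstream of its 2 annotated starts. Neither RNF43 start, nor the LEF1 start, nor the upstream TCF7 start held either word in that window. Over all 35116 promoters in the table, CTTTGAT was found in 2.26%, CTTTGTT in 4.5% and either in 6.6%. The 2 windows with a match are shown because they carry searched letters by which TCF proteins are known to act, with those letters in capitals. Other spellings of the TCF/LEF core were neither searched nor marked. The SP5 window is chr2:170715087-170715336 on the plus strand and the TCF7 window is chr5:134123368-134123617 on the plus strand, both GRCh38.
SP5: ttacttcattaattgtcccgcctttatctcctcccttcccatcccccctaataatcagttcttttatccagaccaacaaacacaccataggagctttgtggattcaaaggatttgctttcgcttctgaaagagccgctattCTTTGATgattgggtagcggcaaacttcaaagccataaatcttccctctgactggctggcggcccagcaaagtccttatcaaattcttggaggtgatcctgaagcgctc
TCF7: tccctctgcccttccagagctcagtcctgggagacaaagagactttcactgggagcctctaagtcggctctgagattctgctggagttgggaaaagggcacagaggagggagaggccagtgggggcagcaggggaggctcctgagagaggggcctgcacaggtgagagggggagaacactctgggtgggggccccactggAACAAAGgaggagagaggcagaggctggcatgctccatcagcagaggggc
A match describes these letters only, and binding was not measured.

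Levels differed widely among the members. On the scale of TMM-scaled CPM per kilobase of exon, the median over the 7 libraries was 128 for MYC, 7.2 for RNF43, 6.71 for AXIN2, 4.52 for ZNRF3, 4.42 for TCF7, 1.51 for NKD1 and 0.419 for SP5. MYC RNA was far above all the other members. LGR5, the R-spondin receptor that marks crypt stem cells, had 2 counts in vector cells, 1 count in p53-R273H cells with ATO and 0 in the other 5 libraries. ASCL2, a stem cell transcription factor of the crypt, had 1 count in vector cells and 0 elsewhere. LEF1, a DNA-binding partner of beta-catenin, had 3 counts in wild-type p53 cells, 2 in p53-M133T cells with ATO and 1 without, 0 in p53-R273H cells with ATO and 1 without, and 4 in vector cells with ATO and 5 without. Differences in these 3 genes were not detectable at this depth. Of 14 genes of intestinal differentiation, 3 reached 1 CPM in at least 1 library.

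**Figure D1:**
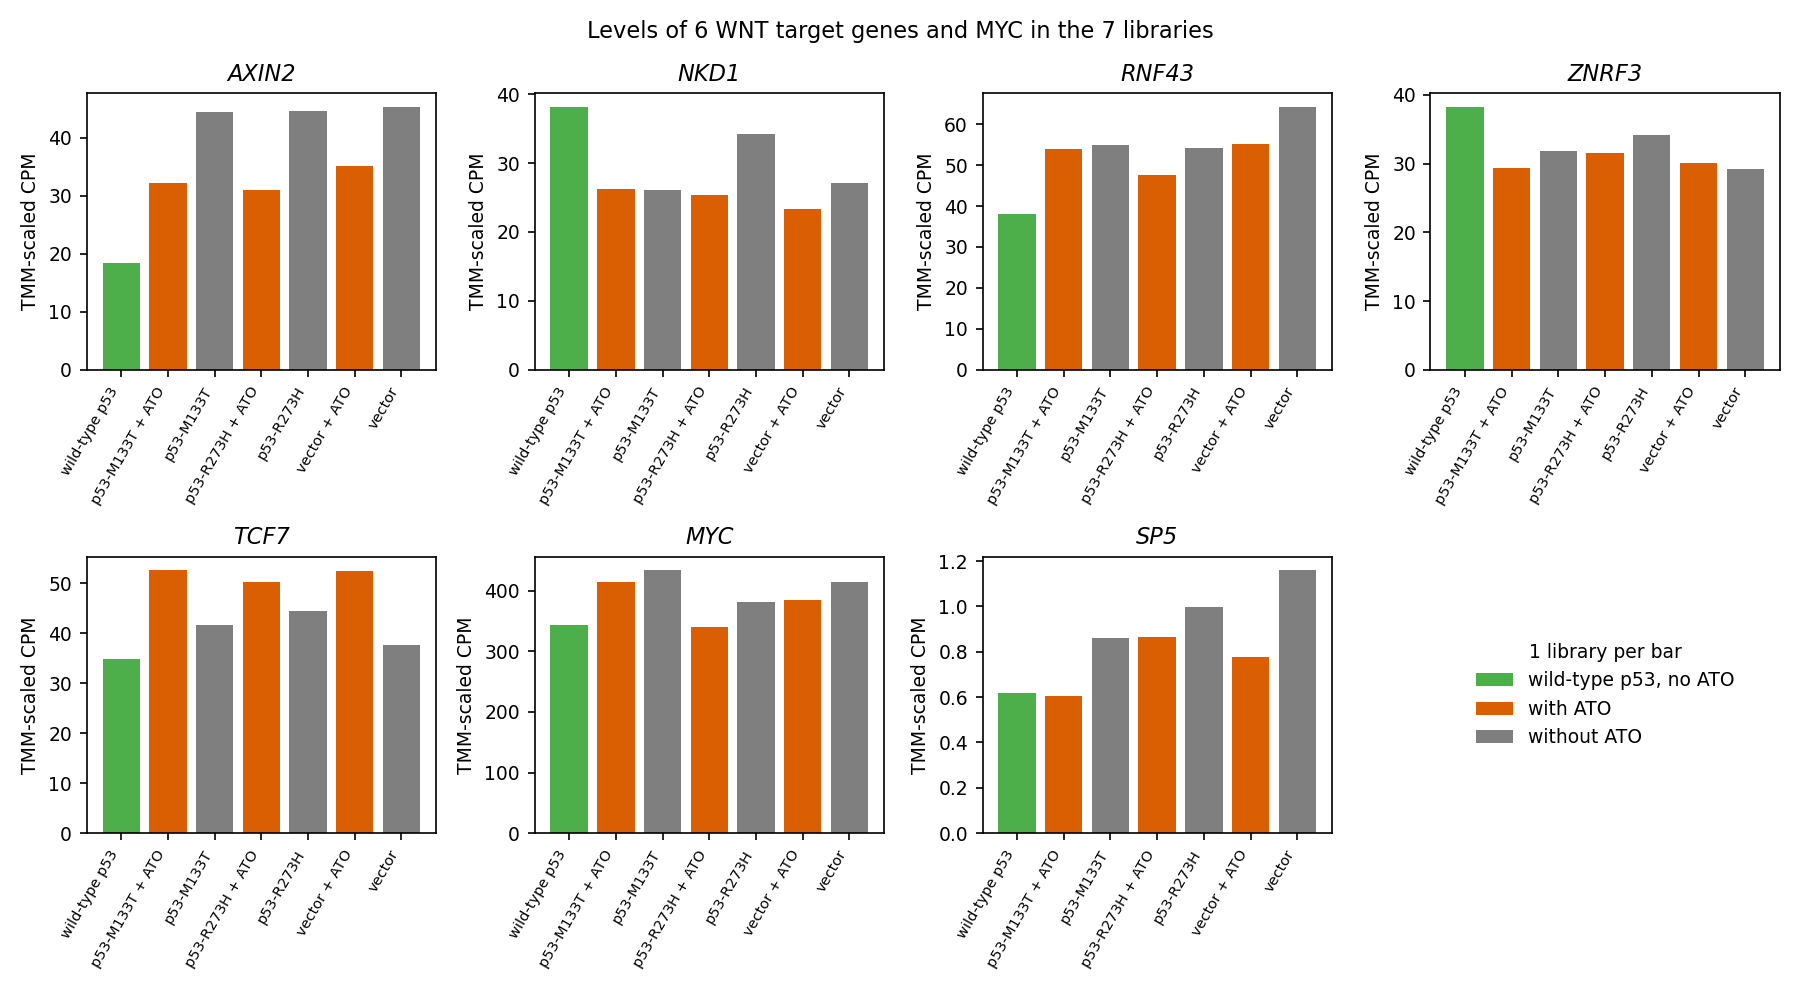
Bars give the TMM-scaled CPM of 6 WNT target genes and MYC, 1 library per bar and so without error bars, with green for wild-type p53, orange for ATO and grey for no ATO. AXIN2 is lower in each ATO library than in the library of the same line without ATO and lowest at 18.4 CPM with wild-type p53, and TCF7 is higher with ATO in all 3 lines.

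The first question was what ATO does to the WNT targets in the 3 lines that received it. AXIN2 fell and TCF7 rose, and the other 5 tested members did not pass. The test compared the 3 ATO libraries with the 3 without, with the line as a block (edgeR quasi-likelihood, Benjamini-Hochberg adjustment over 13572 genes, threshold 0.05). ATO changed a large share of all genes: 43.2% passed, 22.3% rising and 20.9% falling. Against that background, the 1 rising and 1 falling of 7 members is no larger a share than among all genes. The lines stand in for replicates here, since no line was sequenced more than once per treatment. With the line as a block, each p-value reflects how much the ATO response varies between lines and not how their levels differ. The spread also draws on all genes (2 residual and 5.95 prior degrees of freedom).

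AXIN2 encodes a scaffold of the beta-catenin destruction complex and is a negative feedback target of the pathway (ENSG00000168646, chr17:65528563-65561647, minus strand, GENCODE 29 on hg38). It had 32.2 CPM in p53-M133T cells, 31.1 CPM in p53-R273H cells and 35.1 CPM in vector cells with ATO, against 44.5, 44.7 and 45.4 CPM in the same lines without ATO. The 3 libraries without ATO did not differ from each other beyond counting error. In bulk RNA, fewer cells that carry a transcript and less of it per cell cannot be told apart. The common change was 0.727-fold (log2 -0.46, SE 0.0597, adjusted p = 0.000879, edgeR quasi-likelihood), lower in 3 of 3 lines. AXIN2 passed in each of the 9 alternative analyses, with log2 fold changes between -0.49 and -0.42. Its annotated exons share 1316 bases with another gene on the same strand, CTD-2535L24.2, which had 0 to 15 counts per library.

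TCF7, which encodes the TCF-1 transcription factor, moved in the other direction (ENSG00000081059, chr5:134114711-134151865, plus strand). It had 52.6 CPM in p53-M133T cells, 50.2 CPM in p53-R273H cells and 52.4 CPM in vector cells with ATO, against 41.7, 44.5 and 37.6 CPM in the same lines without ATO. The difference was smallest in p53-R273H cells. TCF7 rose 1.25-fold (log2 0.32, SE 0.0692, adjusted p = 0.00727, edgeR quasi-likelihood), higher in 3 of 3 lines. Without the vector pair the change was 0.26 on the log2 scale and no longer passed (adjusted p = 0.0924, edgeR quasi-likelihood). The counts do not tell transcripts from the upstream and the downstream TCF7 start apart, and 210 exon bases lie opposite SKP1, a gene at 181 to 221 CPM.

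NKD1, an inhibitor that binds Dishevelled, differed more between lines (chr16:50548330-50649249, plus strand). It had 26.3 CPM in p53-M133T cells, 25.4 CPM in p53-R273H cells and 23.4 CPM in vector cells with ATO, against 26.1, 34.3 and 27.1 CPM without. The p53-M133T pair showed no difference beyond counting error (ratio 1.01, 95% counting interval 0.921 to 1.1), while the p53-R273H pair differed by a ratio of 0.74 (0.678 to 0.808). The common change of -0.22 (log2, SE 0.0881) did not pass (adjusted p = 0.0795, edgeR quasi-likelihood). It passed without the p53-M133T pair (log2 -0.33, adjusted p = 5.93e-05) and after a correction for gene length and GC content (log2 -0.28, adjusted p = 0.00507), both with edgeR. Without the p53-R273H pair the change was -0.11 (adjusted p = 0.415, edgeR). The fit without the p53-M133T pair took its spread from all genes (infinite prior and 1 residual degrees of freedom). Its p-values do not measure how much NKD1 differed between the lines left.

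RNF43 and ZNRF3 encode paired membrane ubiquitin ligases that remove Frizzled receptors from the cell surface. RNF43 (chr17:58352500-58417595, minus strand) had 54.0 CPM in p53-M133T cells, 47.6 CPM in p53-R273H cells and 55.1 CPM in vector cells with ATO, against 54.9, 54.1 and 64.3 CPM without. Its common change was -0.15 (log2, SE 0.0633, adjusted p = 0.092, edgeR quasi-likelihood), so it did not pass. It passed without the p53-M133T pair (log2 -0.21, adjusted p = 0.00136) and with the length and GC correction (log2 -0.17, adjusted p = 0.0361, edgeR). Without the vector pair the change was -0.1 (adjusted p = 0.507, edgeR). The fit without the p53-M133T pair took its spread from all genes, as for NKD1. HCT116 expressed RNF43 RNA in every library, and its exons share 4326 bases with AC004687.2 on the same strand, whose reads may have been counted with it. ZNRF3 (chr22:28883592-29057487, plus strand) had 29.3 CPM in p53-M133T cells, 31.5 CPM in p53-R273H cells and 30.1 CPM in vector cells with ATO, against 31.9, 34.2 and 29.2 CPM without. These groups overlapped, and the common change was -0.07 (log2, SE 0.0634, adjusted p = 0.39, edgeR quasi-likelihood).

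MYC (ENSG00000136997, chr8:127735434-127741434, plus strand) had 415 CPM in p53-M133T cells, 341 CPM in p53-R273H cells and 385 CPM in vector cells with ATO, against 434, 382 and 414 CPM without. Each line was lower with ATO, by a ratio of 0.955 (95% counting interval 0.934 to 0.976) in p53-M133T cells, 0.893 (0.871 to 0.915) in p53-R273H cells and 0.929 (0.908 to 0.951) in vector cells. The groups overlapped: p53-M133T cells with ATO were level with vector cells without ATO (ratio 1.0, 0.979 to 1.02). MYC did not pass the common test (log2 -0.12, SE 0.0506, 0.922-fold, adjusted p = 0.0942, edgeR quasi-likelihood). It passed without the p53-M133T pair (log2 -0.14, adjusted p = 0.0129) and among genes with a mean of at least 10 CPM (log2 -0.15, adjusted p = 0.0379), both with edgeR. With the length and GC correction its change was -0.05 (adjusted p = 0.451, edgeR). The fit without the p53-M133T pair took its spread from all genes, as for NKD1.

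SP5 (chr2:170715351-170718078, plus strand) was near the limit of measurement. It had 23, 30 and 29 counts in p53-M133T, p53-R273H and vector cells with ATO, against 34, 35 and 41 counts without. The ATO libraries were all lower in number, and each pair's counting interval included 1. The common change of -0.43 (log2, SE 0.285) did not pass (adjusted p = 0.255, edgeR quasi-likelihood).

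None of the 7 members at 1 CPM or above reached a 2-fold difference within a line. Of all 12661 genes at 1 CPM or above, 2.32% were at least 2-fold apart between p53-M133T cells with and without ATO, 1.37% between p53-R273H cells and 1.66% between vector cells, on the log2 scale with a pseudocount of 1 CPM.

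**Figure D2:**
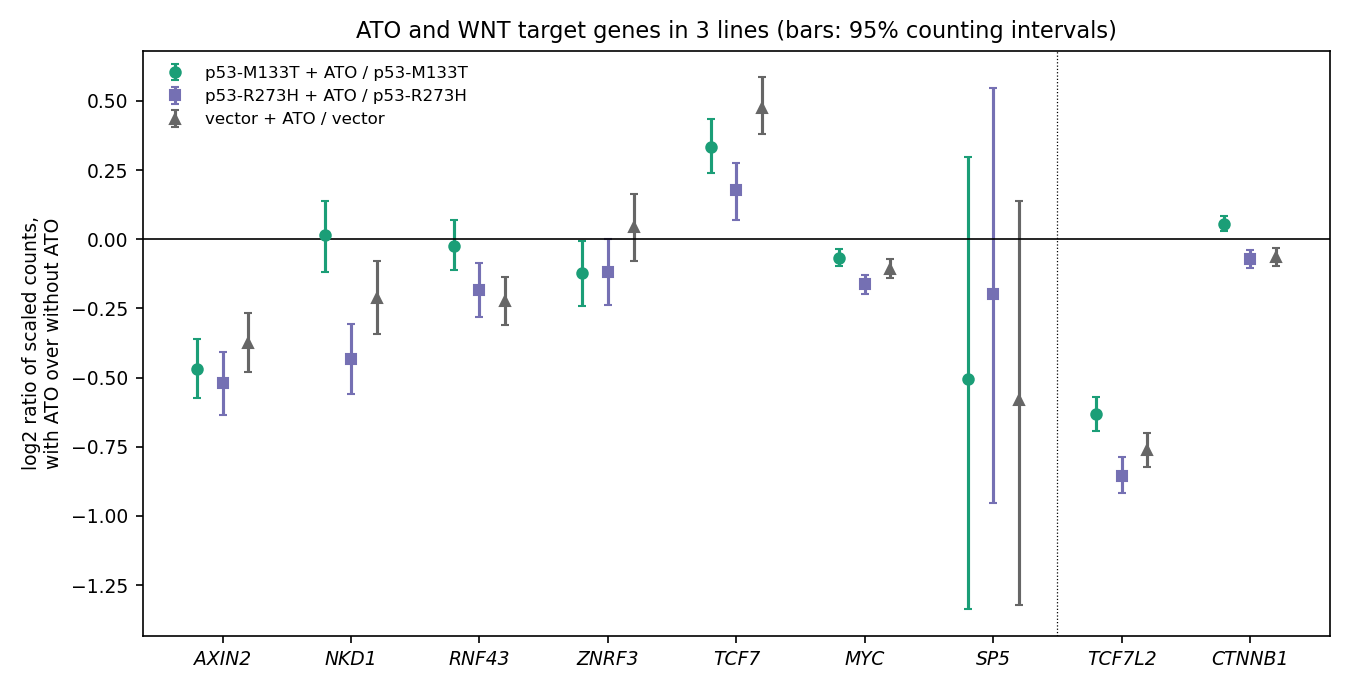
Points give the log2 ratio of scaled counts with ATO over without ATO in p53-M133T (circles), p53-R273H (squares) and vector cells (triangles), with 95% counting intervals as bars and, right of the dotted line, TCF7L2 and CTNNB1 for comparison. AXIN2 and TCF7L2 lie below 0 and TCF7 above 0 in all 3 lines, NKD1 differs by line, and SP5 has wide intervals.

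The RNA of beta-catenin itself, CTNNB1, did not pass the common test (log2 -0.03, SE 0.053, adjusted p = 0.653, edgeR quasi-likelihood). It had 454, 426 and 433 CPM in p53-M133T, p53-R273H and vector cells with ATO, against 437, 447 and 452 CPM without. TCF7L2, which encodes TCF4, the main DNA-binding partner of beta-catenin in intestinal epithelium, fell to 88.6, 84.2 and 89.5 CPM with ATO in these lines, against 137, 152 and 152 CPM without. That is 0.593-fold (log2 -0.75, SE 0.0619, adjusted p = 0.000132, edgeR quasi-likelihood). The TCF genes moved in both directions: TCF7L2 and TCF7L1 (0.696-fold, adjusted p = 0.0015) fell and TCF7 rose, in the same edgeR test.

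The rest of the pathway was read from gene lists by role, each count being of genes that passed the same edgeR test, beside 22.3% rising and 20.9% falling over all genes, whose median was 0.0 on the log2 scale. Of 15 tested WNT ligands and secretion genes, 0 rose and 4 fell, with a median log2 change of -0.36. At an unadjusted p under 0.05, a share not counted over all genes, 2 were higher, and DESeq2 called 0 as rising. The length and GC correction called 2 as rising and 4 as falling, where 2855 of all 13572 genes rose and 2825 fell. Without a filter on low counts, 1 of 21 rose and 4 fell, beside 3232 and 2856 of 18960 genes. Without the p53-M133T pair, 1 of 14 rose and 6 fell, beside 3585 and 3254 of 13381 genes. WNT16 fell most, to 28.5, 22.7 and 29.7 CPM in p53-M133T, p53-R273H and vector cells with ATO, against 102, 94.1 and 117 CPM without (0.257-fold, SE 0.0651 on the log2 scale, adjusted p = 2.4e-06). The other ligands that fell were less abundant: WNT10A (0.474-fold) lay at or below 1.47 CPM and WNT3 (0.663-fold) at or below 11.3 CPM in the 6 libraries. WLS, the carrier that brings WNT proteins to the cell surface, fell 0.778-fold.

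Of 14 tested receptors and R-spondin genes, 2 rose and 7 fell (median log2 -0.18). FZD2, a Frizzled receptor, fell to 8.53, 8.18 and 8.39 CPM with ATO in p53-M133T, p53-R273H and vector cells, against 14.0, 12.6 and 14.6 CPM without (0.607-fold, adjusted p = 0.000677, edgeR). LGR6, FZD8 and RSPO4 had larger fold changes at very low levels, none above 1.08 CPM in the 6 libraries. Among 4 tested secreted inhibitors and their receptors, 0 rose and 3 fell (median log2 -0.35), with 0 higher at an unadjusted p under 0.05 or by DESeq2. The unadjusted share was not counted over all genes. DKK1, a secreted blocker of LRP receptors, fell to 324, 301 and 276 CPM with ATO, against 555, 505 and 519 CPM without, and this 0.568-fold change (adjusted p = 6.97e-05, edgeR) came in a gene that is itself a WNT target. KREMEN2 (0.775-fold) and KREMEN1 (0.799-fold), receptors for DKK proteins, fell less.

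Among 14 genes of beta-catenin and its destruction complex, 6 rose and 2 fell (median log2 0.11). TNKS and TNKS2, the tankyrases that mark AXIN proteins for degradation, rose 1.4-fold (adjusted p = 0.00579) and 1.38-fold (adjusted p = 0.00158) in edgeR's test. DVL2, a Dishevelled protein that relays the receptor signal, fell 0.744-fold and AMER1, an APC-binding membrane protein, fell 0.784-fold. Of 15 tested TCF partners and nuclear cofactors, 2 rose and 8 fell (median log2 -0.28), with TCF7L2 and TCF7L1 among the 8. HNF4A (0.441-fold) and PYGO1 (0.387-fold) also fell, at no more than 2.05 CPM.

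Of 18 tested further WNT target genes, 4 rose and 10 fell (median log2 -0.35). SOX4, a transcription factor, fell to 101, 102 and 94.7 CPM with ATO in p53-M133T, p53-R273H and vector cells, against 266, 253 and 247 CPM without (0.387-fold, SE 0.0543 on the log2 scale, adjusted p = 5.42e-06, edgeR). BMP4, a secreted growth factor, fell 0.46-fold, and CEMIP, a hyaluronan-binding protein, fell 0.436-fold. TNFRSF19 (0.442-fold) also fell, at no more than 2.04 CPM. Not all targets fell: CCND1, the cyclin D1 gene, and JUN were among the 4 that rose, with log2 changes of 0.425 (adjusted p = 0.00126, edgeR) and 0.357 (adjusted p = 0.00802, edgeR). Both are named after their values were seen. TCF7L2 is counted in this list as well as among the TCF partners. NOTUM is also counted among the secreted inhibitors, and CDX2 among the intestinal differentiation genes. With the vector pair left out, 1511 of 13389 genes in the whole table rose and 1403 fell, against 3021 and 2838 of 13572 in the full test. In that fit the counts of genes rising and falling were 0 and 3 for ligands, 2 and 4 for receptors, 0 and 1 for inhibitors, 4 and 1 for the destruction complex, 0 and 4 for TCF partners, and 2 and 9 for further targets.

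**Figure D3:**
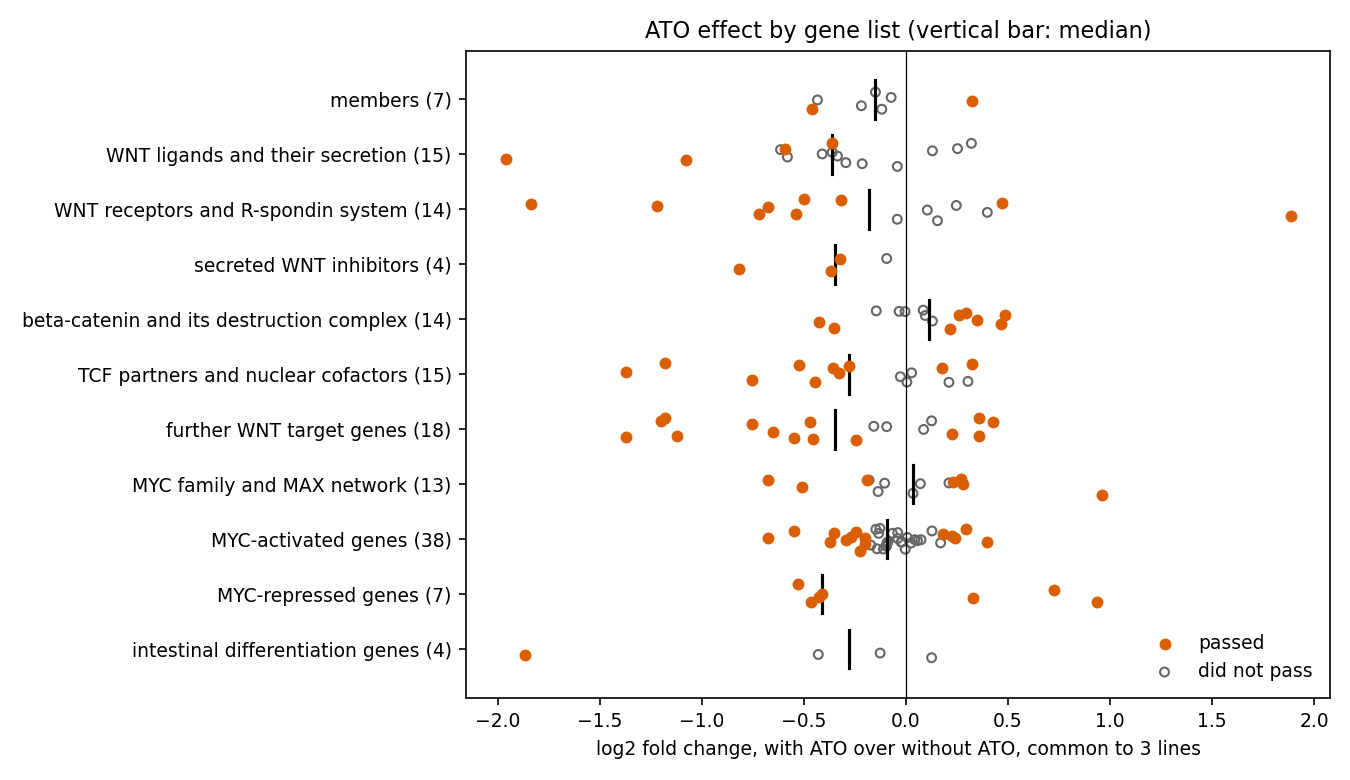
Each point is a tested gene at its common log2 fold change, with ATO over without ATO, in rows by gene list with the number tested in brackets, filled where the gene passed at adjusted p under 0.05, and vertical bars mark the medians. Medians lie above 0 for the destruction complex (0.11) and the MYC network (0.04) and below 0 for every other row, the lowest being that of the MYC-repressed genes (-0.41).

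The network around MYC was described in the same way. Of 13 tested genes of the MYC family and its partners, 4 rose and 3 fell (median log2 0.04). MAX, the obligate partner of MYC, rose 1.21-fold (adjusted p = 0.0125, edgeR). MXD1, which competes with MYC for MAX, rose to 9.14, 7.74 and 8.2 CPM with ATO in p53-M133T, p53-R273H and vector cells, against 4.03, 4.64 and 4.16 CPM without (1.95-fold, adjusted p = 0.000826, edgeR). Its relatives MXD3 (0.626-fold) and MXD4 (0.702-fold) fell, and FBXW7, a ubiquitin ligase subunit that targets MYC, rose 1.21-fold. Without the vector pair, where 2914 of 13389 genes passed in all, 1 gene of this network rose and 1 fell.

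Of 38 genes that MYC is known to activate, 5 rose and 10 fell, and the median log2 change was -0.09. BOP1, a ribosome assembly factor, fell to 138, 122 and 132 CPM with ATO in these lines, against 226, 199 and 199 CPM without (0.626-fold, adjusted p = 0.000122, edgeR). CAD, a pyrimidine synthesis enzyme, fell 0.774-fold, and TERT, the telomerase catalytic subunit, fell 0.684-fold at no more than 4.16 CPM. RRP12, another ribosome assembly gene, rose 1.32-fold. Without the vector pair, 1 of the 38 rose and 4 fell, with 2914 of 13389 genes passing in all. Without the p53-M133T pair 8 rose and 10 fell, with 6839 of 13381 genes passing in all. The length and GC correction gave 4 rising and 6 falling, with 5680 of 13572 genes passing in all. Of 7 tested genes that MYC is known to repress, 3 rose and 4 fell (median log2 -0.41), and of the 3 that rose CDKN1A (1.91-fold) and GADD45A (1.65-fold) are also p53 targets. CEBPA (0.693-fold) and NDRG2 (0.724-fold) fell. Without the vector pair, 2 rose and 1 fell. Of the 4 tested genes of intestinal differentiation (median log2 -0.28) 1 fell, KRT20, at no more than 0.431 CPM in the 6 libraries, and DESeq2 called 0 of them. With the length and GC correction 1 of the 4 rose and 2 fell.

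The second question was whether ATO acts on these genes in another way in p53-M133T cells. None of the 7 tested members passed the interaction test of p53-M133T against the other 2 lines, in which 8.27% of 13974 genes passed (5.84% higher, 2.43% lower). NKD1 came nearest, with a log2 difference of 0.34 (SE 0.131, adjusted p = 0.0991, edgeR quasi-likelihood). It was the 1 member with an unadjusted p under 0.05, a share that was not counted over all genes. With the length and GC correction its difference was 0.02 (adjusted p = 0.964, edgeR). The log2 difference was -0.02 (SE 0.115) for AXIN2, 0.07 (SE 0.0903) for MYC, 0.01 (SE 0.11) for TCF7, 0.18 (SE 0.104) for RNF43, -0.08 (SE 0.124) for ZNRF3 and -0.11 (SE 0.733) for SP5. DESeq2 also called 0 members. With 1 residual degree of freedom, these errors rest mainly on the spread shared across genes.

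In the same test some pathway genes had a higher ATO effect in p53-M133T cells than in the other 2 lines, and those named here were chosen after their values were seen. They were 3 of 14 destruction complex genes, APC (1.61-fold, adjusted p = 6.22e-08), TNKS (1.39-fold) and GSK3B (1.32-fold), and 1 of 14 receptors, LRP6 (1.4-fold). APC had 70.7 CPM in p53-M133T cells with ATO and 48.1 CPM without, and it had 69.2 CPM with ATO and 83.2 CPM without in p53-R273H cells and 64.6 CPM with ATO and 63.8 CPM without in vector cells. The p53-M133T library without ATO was the lowest of the 6 for APC, LRP6, TNKS, GSK3B, EP300, CREBBP, CHD8 and MGA. For each of these genes the 3 lines ranged more widely without ATO than with it: LRP6 had 79.6, 79.7 and 78.0 CPM in p53-M133T, p53-R273H and vector cells with ATO, and 53.5, 79.2 and 68.9 CPM without. Of 15 TCF partners 4 passed, EP300 (1.51-fold), CREBBP (1.36-fold), CHD8 (1.29-fold) and BCL9L (1.22-fold), and of 13 MYC network genes 2 passed, MGA (1.63-fold) and MXD4 (1.39-fold). Among 18 further targets SOX9 passed (1.28-fold), and among 7 MYC-repressed genes CDKN1A, GADD45A (1.33-fold) and NDRG1 (1.31-fold). The MYC-activated genes gave 0 of 38 with edgeR and with DESeq2. At an unadjusted p under 0.05, 13 of them were lower, and that share was not counted over all genes. Against vector cells, 32 of the 38 were above 0 in p53-M133T cells without ATO (median log2 ratio 0.15). With ATO on both sides, 20 were (median 0.0). With a correction for gene length and GC content, the calls were 2 destruction complex genes, 1 receptor, 1 TCF partner, 1 MYC network gene, 1 further target and 2 MYC-repressed genes higher and 1 MYC-activated gene lower, and 601 genes of the whole table passed, against 1156 without it. DESeq2 called 2 destruction complex genes, 0 receptors, 1 TCF partner, 1 MYC network gene, 0 further targets and 1 MYC-repressed gene, and 161 genes in all.

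In p53-R273H cells 0 members passed, with 0.222% of genes passing over all, and 0 had an unadjusted p under 0.05. The nearest was again NKD1, with a log2 difference of -0.32 (SE 0.167, adjusted p = 0.956, edgeR quasi-likelihood), which was -0.1 with the length and GC correction. In vector cells 0 members passed, with 0% of genes passing, and 0 had an unadjusted p under 0.05. DESeq2 called 0 members in both. Shares at an unadjusted p under 0.05 were not counted over all genes in these tests. The 3 interaction tests use the same 6 libraries.

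The third question was what the p53 forms do to WNT targets without ATO, each against vector cells. With 1 library on each side there is no test, and the ratios below carry 95% counting intervals that cover counting error only. Of all 12661 genes at 1 CPM or above, 4.83% were at least 2-fold apart between wild-type p53 and vector cells on the log2 scale with a pseudocount of 1 CPM, 2.87% higher and 1.96% lower. Of the 7 members at that level, 1 was at least 2-fold lower and 0 higher.

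That member was AXIN2, at 18.4 CPM with wild-type p53 and 45.4 CPM with vector, a ratio of 0.406 (0.366 to 0.45). Only 0.861% of genes had a lower log2 ratio. RNF43 was lower too, at 38.0 CPM with wild-type p53 and 64.3 CPM with vector (0.591, 0.548 to 0.637), and SP5 had 16 and 41 counts (0.534, 0.28 to 0.972). MYC had 343 CPM with wild-type p53 and 414 CPM with vector, a ratio of 0.828 (0.806 to 0.85), below which 22.9% of genes lay. The feedback inhibitors NKD1 and ZNRF3 were higher with wild-type p53: NKD1 had 38.2 CPM against 27.1 CPM with vector (1.41, 1.29 to 1.54), and ZNRF3 had 38.3 CPM against 29.2 CPM (1.31, 1.2 to 1.43). TCF7 did not differ beyond counting error, at 34.8 CPM with wild-type p53 and 37.6 CPM with vector (0.926, 0.849 to 1.01). The targets of the pathway lay on both sides of 1 in this pair of libraries.

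TCF7L2 was at 193 CPM with wild-type p53 and 152 CPM with vector (1.27, 1.23 to 1.32), and CTNNB1 at 431 and 452 CPM (0.954, 0.931 to 0.978). Of the ligands, 2 of 12 at 1 CPM or above were at least 2-fold higher with wild-type p53: WNT16 had 265 CPM against 117 CPM with vector (2.26, 2.17 to 2.35) and WNT4 had 2.86 CPM against 0.566 CPM (5.06, 3.05 to 8.76). No gene of the receptor, inhibitor, destruction complex, TCF partner or further target lists was 2-fold apart, and the further targets had a median log2 ratio of 0.39, beside 0.01 for all genes, with 14 of 18 above 0.

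The MYC-activated genes were lower nearly throughout in wild-type p53 cells, with 1 of 38 above 0 and a median log2 ratio of -0.42, beside 0.01 over all genes. Of these, 3 were at least 2-fold lower. ODC1, the first enzyme of polyamine synthesis, had 272 CPM with wild-type p53 and 599 CPM with vector (0.454, 0.442 to 0.467), CDCA7 had 35.1 and 84.3 CPM (0.417, 0.387 to 0.449) and TERT had 1.47 and 4.16 CPM (0.354, 0.241 to 0.508). In the MYC network, MXD1 had 12.8 CPM with wild-type p53 and 4.16 CPM with vector (3.07, 2.52 to 3.76), and MXD4 had 52.6 and 20.4 CPM (2.58, 2.36 to 2.83). MXD3 was lower, at 6.31 CPM with wild-type p53 and 17.4 CPM with vector (0.362, 0.303 to 0.431). Of 7 MYC-repressed genes 2 were at least 2-fold higher: NDRG1 had 927 CPM with wild-type p53 and 113 CPM with vector (8.23, 7.95 to 8.51), and CDKN1A, the p53 target, was 3.22-fold higher (3.06 to 3.39). Among the intestinal differentiation genes KRT20 was higher (2.09 against 0.255 CPM) and CA2 lower (13.6 against 31.6 CPM). The wild-type p53 library is the one whose label number and genotype cannot be told apart.

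**Figure D4:**
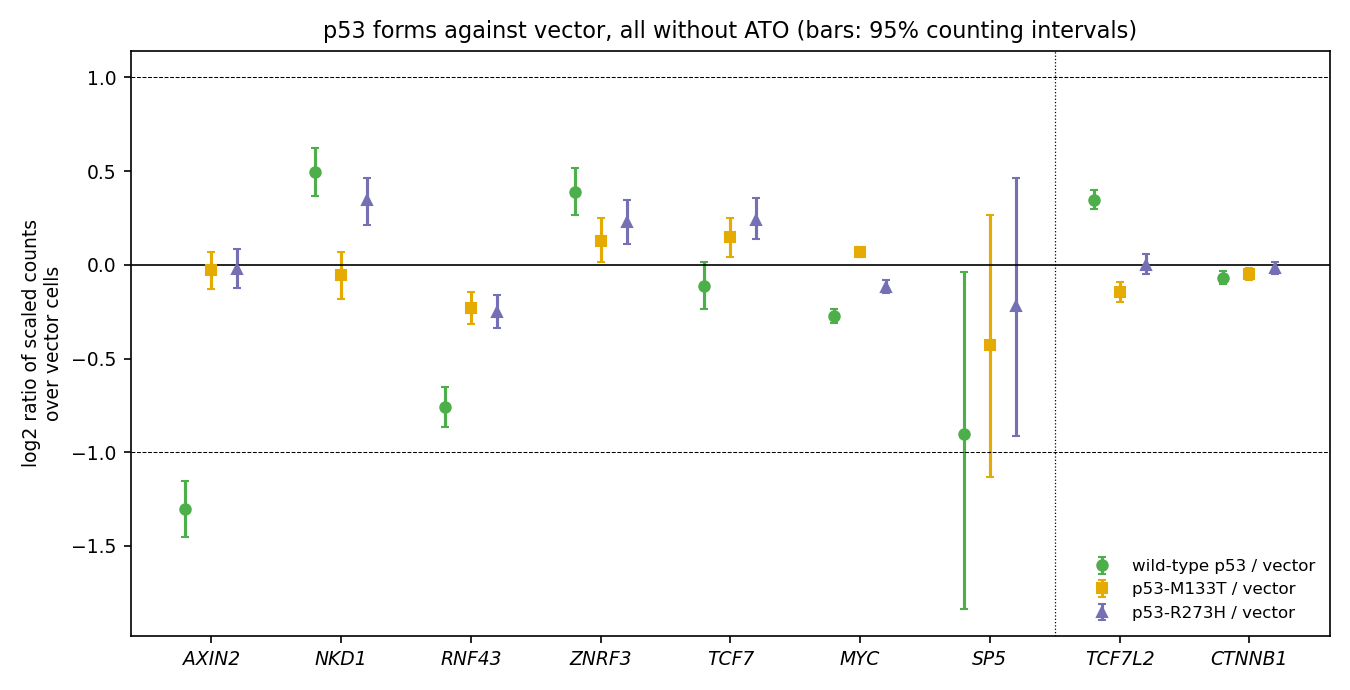
Points give the log2 ratio of scaled counts over vector cells for wild-type p53 (circles), p53-M133T (squares) and p53-R273H (triangles), all without ATO, with 95% counting intervals as bars and dashed lines at 2-fold. With wild-type p53, AXIN2 is the only one of the 7 members beyond the dashed line, at a ratio of 0.406, and the p53-M133T and p53-R273H points lie between the dashed lines.

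The p53 variants stayed within 2-fold of vector cells for the members, with some smaller differences beyond counting error. None of the 7 members was 2-fold apart in p53-M133T or in p53-R273H cells, where 0.205% and 0.174% of all genes were. AXIN2 did not differ beyond counting error in p53-M133T cells (0.98, 0.916 to 1.05) or in p53-R273H cells (0.984, 0.918 to 1.06). RNF43 was lower than in vector cells by a ratio of 0.853 (0.804 to 0.905) with p53-M133T and 0.841 (0.791 to 0.894) with p53-R273H. MYC was at a ratio of 1.05 (1.03 to 1.07) in p53-M133T cells and 0.922 (0.901 to 0.944) in p53-R273H cells, on opposite sides of vector. NKD1 in p53-R273H cells, at 34.3 CPM against 27.1 CPM in vector cells (1.27, 1.16 to 1.38), was higher than 98.1% of genes by log2 ratio, while in p53-M133T cells it did not differ beyond counting error (0.963, 0.881 to 1.05). TCF7 was higher than in vector cells with p53-M133T (1.11, 1.03 to 1.19) and with p53-R273H (1.18, 1.1 to 1.28). So was ZNRF3 (1.09, 1.01 to 1.19, and 1.17, 1.08 to 1.27), while both SP5 intervals included 1. Of 38 MYC-activated genes, 32 were above 0 in p53-M133T cells (median log2 ratio 0.15) and 16 in p53-R273H cells (-0.01). The median over all genes was 0.01 in both. All 3 comparisons of p53 forms share the vector library and are not independent of each other.

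With ATO on both sides the members also stayed within 2-fold of vector cells, where 0.229% of genes were 2-fold apart with p53-M133T and 0.174% with p53-R273H. AXIN2 was at a ratio of 0.918 (0.849 to 0.994) with p53-M133T and 0.888 (0.819 to 0.964) with p53-R273H. MYC was at 1.08 (1.05 to 1.1) with p53-M133T and 0.886 (0.865 to 0.908) with p53-R273H. RNF43 differed from vector cells with ATO in p53-R273H cells (0.864, 0.81 to 0.923), and in p53-M133T cells the interval included 1 (0.979, 0.921 to 1.04).

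Over all 7 libraries the order of levels could be read for some members and not for others. AXIN2 lay at 3 levels: the 3 libraries without ATO and without wild-type p53 (44.5 to 45.4 CPM), the 3 with ATO (31.1 to 35.1 CPM) and wild-type p53 (18.4 CPM). Neighbouring levels were apart beyond counting error, and within the ATO libraries vector cells were above p53-M133T cells (1.09, 1.01 to 1.18). How many of all genes have such levels was not counted. MYC was highest at 434 CPM in p53-M133T cells and lowest at 341 CPM in p53-R273H cells with ATO, which were level with wild-type p53 cells (343 CPM). ZNRF3 was highest with wild-type p53, and none of the other 6 libraries differed from its neighbour in the order beyond counting error. For SP5 no neighbours differed beyond counting error. The genes most like AXIN2 over the 7 libraries, by Pearson's r of log2(CPM + 1) among 9650 genes with a mean of at least 10 CPM, were CTD-2116N17.1 (r = 0.993), LMNB2 (0.992) and DHX9 (0.991). Those most like MYC were VPS51 (0.994), PTDSS2 (0.982) and SSU72 (0.975). These describe 7 libraries that share line and treatment, and among so many genes some reach such values for any profile.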

How the data were processed

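The authors deposited 1 table of whole-number gene counts, not normalized, with 1 column for each of 7 RNA-seq libraries. Every column was used. TruSeq libraries were sequenced, per the labels' protocols, as pairs of 150 bp reads on a HiSeq Xten. FastQC, cutadapt, STAR and hg38 come from the submitters' processing notes, which give no versions. How reads were counted, with which annotation and strand setting, is not given in the sources used here, so genes with overlapping exons are uncertain. All 19699 identifiers matched GENCODE 29, which supplied positions, exon lengths and overlaps.

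CPM, log2 ratios (pseudocount 1) and tests were computed from the counts with edgeR 4.0.16 in R 4.3.3 (TMM, filterByExpr, glmQLFit, glmQLFTest, Benjamini-Hochberg over all genes, threshold 0.05), and DESeq2 1.42.0 was an alternative. The common ATO test used 6 libraries with the line as a block and 2 residual degrees of freedom, and the 3 interaction tests had 1. Libraries of the same line made the pairs, and their deviations from the treatment means correlated at 0.0676 in p53-M133T, 0.11 in p53-R273H and -0.00934 in vector cells. The 8 comparisons of 2 libraries have no p-value. Their 95% Clopper-Pearson intervals and the floor of 3 counts cover counting error alone, because without molecular identifiers several reads can come from 1 molecule. The fits were also run on simulated counts with changes larger than those of the members. That run does not test changes of the size reported for the members.

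Every member is described. Of each pathway list, the genes named were at most 4 of those passing the common test, by absolute log2 fold change, and at most 3 of those 2-fold apart in a comparison of 2 libraries. CTNNB1, TCF7L2 and MAX were named whatever their values, and CDKN1A as a p53 target. Outside this rule, CCND1, JUN and the pathway genes of the p53-M133T interaction test were named after their values were seen. For AXIN2 and MYC the 3 genes most like each were named. Members, lists and tests were chosen with earlier results of these data known.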

Additional observations from a re-analysis of the deposited data

How the results depend on the processing

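Alternatives covered DESeq2, another normalization (RLE), no filter on low counts, a mean of at least 10 CPM, a length and GC correction with the replicate block, no replicate block and each line's pair left out. AXIN2 fell in all 9 of them. In the common ATO test, 2 of 6 tested members fell with the 10 CPM filter, against 1 of 7 as reported. With the length and GC correction 3 of 7 fell, and without the p53-M133T pair 4 of 7 fell. Of all genes, 2263 of 9584, 2825 of 13572 and 3254 of 13381 fell in these settings, against 2838 of 13572 as reported. Without the vector pair 0 members rose, against 1, and 2914 genes of the whole table passed, against 5859. Over the 3 left-out pairs, members falling ran from 1 to 4, members rising from 0 to 1 and all genes passing from 2914 to 6839. Without the replicate block 5276 genes passed, with 1 member rising and 1 falling. The interaction test of p53-M133T gave 1156 genes, 161 with DESeq2, which left 7044 without an adjusted p, and 601 with the length and GC correction. That of p53-R273H gave 31 genes, 5 with DESeq2, 101 without a filter and 14 with the correction. That of vector gave 0 genes, 2 with DESeq2, 5 without a filter and 3 with the correction. No member was called in any of these. Log2 differences that changed sign were all uncalled. With the correction these were TCF7 (-0.14) and SP5 (0.03) in p53-M133T, RNF43 (0.02) in p53-R273H and NKD1 (0.08) in vector cells, and without a filter NKD1 (0.0) and MYC (0.01) in vector cells. A 1.5-fold rule put 2 members apart between wild-type p53 and vector cells, against 1 at 2-fold. Of all 12661 genes, 2148 were apart by that rule, against 612 at 2-fold. The cause of these shifts was not tested. Depth limits SP5, LEF1, LGR5 and ASCL2, and 1 library per group limits every comparison of p53 forms.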
